A study of Mus musculus with 8 samples.

Results

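The genes described here are the parts of cAMP, PKA and CREB signaling, measured in AtT20 cells with and without HX630. They are a fixed list of 50 genes, in the order of the signal: Gs alpha, the adenylyl cyclases, the catalytic and regulatory subunits of PKA, the PKA inhibitors, the anchoring proteins that hold PKA in place, the phosphodiesterases that degrade cAMP, the CREB family of transcription factors, their coactivators, the Epac proteins and the salt-inducible kinases. All 50 had a probe among the 19751 genes named on the array. Of these, 44 stood well above background on 4 or more of the 8 arrays and could be tested, out of 15319 genes tested in all.

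AtT20 is an established mouse line of pituitary corticotroph tumor cells, which make POMC and secrete ACTH. HX630 is a synthetic agonist of the retinoid X receptors (RXRs), nuclear receptors that bind DNA as dimers. The control group was 4 samples kept without HX630 and the HX630 group 4 samples kept with it at 10 μM, all of the same line and all for 48 hr in medium with stripped serum. HX630 was dissolved in DMSO, and whether the control samples of the arrays received DMSO is not given in the sources used here. The labels number the samples as replicates but do not say that they came from separate cultures, so that p-values measure only the spread between these samples. The comparison shows how transcripts of the pathway differed after treatment with the agonist. It measures RNA only, not cAMP, kinase activity or phosphorylated CREB.

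In the textbook pathway, a hormone such as CRH binds a receptor coupled to Gs, and Gs alpha switches on adenylyl cyclase, which makes cAMP from ATP. PKA is a complex of regulatory and catalytic subunits. When cAMP binds the regulatory subunits, the catalytic subunits are released and phosphorylate their substrates, among them CREB, which binds a DNA element named the CRE and recruits coactivators of the CRTC family. In corticotrophs this chain links CRH to the production of POMC and the release of ACTH. Phosphodiesterases, the PKA inhibitors, the salt-inducible kinases and the CREM repressors each limit the signal at a different step.

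Values are given as the log2 signal of a probe relative to the 75th percentile of its array, so that 0 stands for that percentile, and a difference is the HX630 mean minus the control mean on this scale. A gene was called when the adjusted p of limma, corrected over all 28552 probes tested, was below 0.01 and the fold change was above 1.5, or 0.585 on the log2 scale. A gene with several probes stands by its brightest one. Levels of different probes cannot be compared, and only differences are set side by side. The control arrays shared 1 slide and 1 scan and the HX630 arrays a different slide and scan, so treatment cannot be told apart from slide or scan in any result below. The 75th percentile of the intensities was between 1335 and 1899, and 69.7% to 73.5% of probes stood well above background. No probe was saturated.

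With HX630 the pathway genes were called in both directions. The 8 genes called higher were Adcy5, Prkar1b, Prkar2b, Pkia, Akap5, Pde2a, Pde4b and Crtc3, which is 18.2% of the 44 tested. Over all genes tested, 8.38% were called higher. The 8 genes called lower were Gnas, Prkar1a, Akap12, Akap13, Pde4d, Pde10a, Crem and Sik1, again 18.2%, where 11.2% of all genes were called lower. The adjusted p alone was passed by 27 of the 44 members (61.4%) against 51.2% of all genes. In 30 of the 44 the values of the 4 HX630 arrays did not overlap with those of the 4 control arrays, 15 in each direction, while this was so for 61.5% of all genes. Thus the share of members past the fold threshold was above the background, and the share without overlap was near it. The median difference was -0.03 for the members and -0.03 for all genes, and the median size without sign was 0.40 against 0.28. These shares describe a list chosen with earlier results of these data known, and they were not tested. The balance between the directions depended on the scaling, with 10 members called higher and 7 lower after quantile normalization, 11 and 8 with the median of each array, and 12 and 6 with spike-in probes. The RNA came from whole cultures, in which fewer cells of a type and less RNA per cell cannot be told apart.

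**Figure D1:**
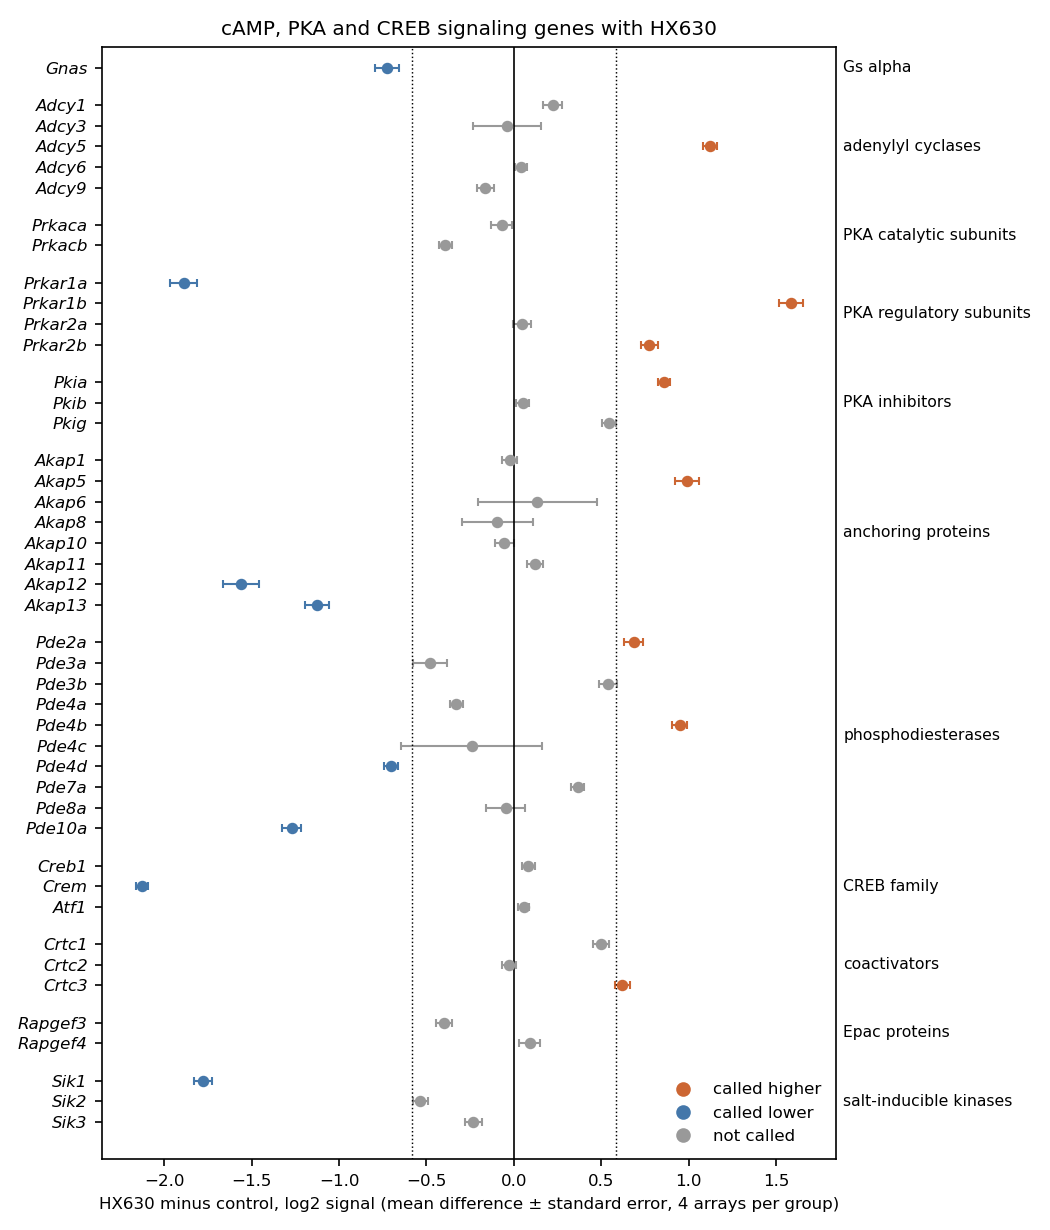
Difference between the HX630 and control means of each of the 44 members tested, on the log2 scale (horizontal axis), with its standard error from limma and 4 arrays per group. Genes are grouped by role, dotted lines mark the fold change threshold of 1.5, and the 16 called members lie outside these lines, from Crem at -2.13 to Prkar1b at 1.58.

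Gnas encodes Gs alpha, the G protein subunit that stimulates adenylyl cyclase. The signal of its brightest probe was 7.36, 7.36, 7.10 and 7.20 on the control arrays and 6.58, 6.48, 6.56 and 6.48 on the HX630 arrays. Every HX630 array was below every control array. The difference was -0.73 ± 0.067 (SE, n = 4 and 4) with an adjusted p of 4.72e-05 by limma. The Gnas locus makes several transcripts from separate first exons, and the other tested probes gave smaller differences of -0.29 (adjusted p = 0.00665) and -0.26 (adjusted p = 0.0159), neither of them called. Which transcripts each probe reads was not determined. The call was lost with quantile normalization (-0.43), with scaling to spike-in probes (-0.50) and with the mean of the probes of the gene (-0.42).

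The adenylyl cyclases make cAMP, and 9 of their genes were on the list. Only Adcy5, an isoform inhibited by Gi and by calcium, was called. Its signal was -3.16, -3.24, -3.22 and -3.13 on the control arrays and -2.13, -2.005, -2.08 and -2.04 on the HX630 arrays. The groups were apart by far more than their spread, with a difference of 1.12 ± 0.042 (SE, n = 4 and 4), a fold change of 2.18 and an adjusted p of 4.94e-07. The other probes of Adcy5 were also called higher, at 1.02 and at 1.65, the latter well above background on only 2 of the 4 control arrays. Adcy1, a cyclase stimulated by calcium and calmodulin, differed by 0.22 (adjusted p = 0.00889), under the fold threshold. Adcy9 (-0.16), Adcy6 (0.04) and Adcy3 (-0.04) did not pass the adjusted p. Adcy2, Adcy4, Adcy7 and Adcy8 were not tested. Their probes were not well above background on any array, except that of Adcy4 on 1 control array.

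Of the PKA catalytic subunits neither was called. Prkaca differed by -0.07 (adjusted p = 0.357) and Prkacb by -0.39 (adjusted p = 5.26e-05). The 4 HX630 arrays of Prkacb were all below the control arrays, and its other probe differed by -0.23.

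Of the 4 PKA regulatory subunits 3 were called, 1 lower and 2 higher. Prkar1a encodes RI alpha, a regulatory subunit found in most cells, whose gene is inactivated in Carney complex, a syndrome with endocrine tumors. Its signal was 6.91, 6.93, 6.67 and 6.83 on the control arrays and 5.11, 4.91, 4.90 and 4.86 on the HX630 arrays. HX630 thus left 27% of the control signal, a difference of -1.89 ± 0.077 (SE, n = 4 and 4; adjusted p = 6.87e-07). The other probe of Prkar1a differed by -1.58 and was called as well (adjusted p = 9.11e-08).

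Prkar1b encodes RI beta, a subunit best known from the nervous system. Its signal was -0.73, -0.80, -1.05 and -0.92 on the control arrays and 0.67, 0.70, 0.74 and 0.71 on the HX630 arrays. This was the member with the highest difference, 1.58 ± 0.069 (SE, n = 4 and 4), a 3.00-fold rise with an adjusted p of 9.27e-07. Prkar2b encodes RII beta, a subunit common in neuroendocrine cells. Its signal was 2.18, 2.13, 2.02 and 2.03 on the control arrays and 2.88, 2.93, 2.82 and 2.84 on the HX630 arrays, and the groups did not overlap. The difference was 0.78 ± 0.05 (SE, n = 4 and 4; adjusted p = 6.34e-06). Its other probes were at 0.53 and 0.51, past the adjusted p and under the fold threshold. Prkar2a, which encodes RII alpha, differed by 0.05 (adjusted p = 0.459).

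Prkar1a was also the only member whose promoter windows held a whole CRE, among the 40 members that could be matched by symbol to RefSeq's promoter table (GRCm38.p6). Each window runs from 250 bases before a transcription start to 50 after it, and the 40 genes had 79 windows, since several have more than 1 start. The CRE was searched as TGACGTCA, which reads the same on both strands. It is held by 1.79% of all 32851 windows and by 2.03% of all genes with a window, so 1 gene among 40 is near that share. Of the several starts of Prkar1a, 1 has the CRE upstream, and it lies downstream of another start in the overlapping window. The stretch around it, at chr11:109650889-109650918 on the plus strand, bases -60 to -31 from the start, is shown because no other member window held the whole element. Capitals mark the CRE.
Prkar1a: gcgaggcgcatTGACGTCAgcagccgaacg
The shorter letters TGACG, searched on both strands and held by every whole CRE, were in 23 of the 79 member windows (29.1%) and in 20.8% of all windows. Counted by gene, 19 of the 40 members had them in at least 1 window, among them 2 of 5 called lower and 3 of 7 called higher, where 23% of all genes with a window had them. These counts by gene are not like measures, since a gene with more windows has more places for a match. The 40 members had 79 windows, while all 27025 genes had 32851. A match is a description of the letters, not a binding site, and which start is used in AtT20 cells was not determined.

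The PKA inhibitors are small proteins that bind and block the free catalytic subunit. Pkia was called higher. Its signal was -1.99, -1.96, -1.99 and -1.99 on the control arrays and -1.13, -1.11, -1.06 and -1.19 on the HX630 arrays. All HX630 arrays were above all control arrays, with a difference of 0.86 ± 0.036 (SE, n = 4 and 4; adjusted p = 7.68e-07). Pkig was just under the fold threshold on both of its probes, at 0.54 and 0.54, each without overlap of the groups (adjusted p = 9.92e-06 for the brighter). Pkib differed by 0.05 (adjusted p = 0.273).

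The anchoring proteins (AKAPs) tether PKA to places in the cell through its regulatory subunits. Of 8 tested, 1 was called higher and 2 lower. Akap5 places PKA at the membrane together with the phosphatase calcineurin. Its signal was -3.09, -3.22, -3.28 and -3.26 on the control arrays and -2.07, -2.30, -2.31 and -2.21 on the HX630 arrays. The HX630 arrays were all higher, by 0.99 ± 0.068 (SE, n = 4 and 4; adjusted p = 9.12e-06).

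Akap12, or gravin, is a scaffold for PKA and PKC. Its signal was -0.03, -0.23, -0.26 and -0.03 on the control arrays and -1.47, -1.86, -1.83 and -1.65 on the HX630 arrays. HX630 left 33.9% of the control signal, and the difference of -1.56 ± 0.10 (SE, n = 4 and 4; adjusted p = 7.24e-06) exceeded the spread within either group. A second probe of Akap12 was not well above background on any array. Akap13 is a large scaffold that also binds PKA. Its signal was 1.41, 1.13, 1.22 and 1.33 on the control arrays and 0.24, 0.14, 0.04 and 0.17 on the HX630 arrays. The groups did not overlap, the difference was -1.13 ± 0.071 (SE, n = 4 and 4; adjusted p = 5.72e-06), and the other probes, at -1.16 and -1.23, were called too.

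The remaining AKAPs were not called on their brightest probe. Akap1 (-0.02), Akap6 (0.13), Akap8 (-0.09), Akap10 (-0.05) and Akap11 (0.12) did not pass the adjusted p. For Akap11 the probes disagreed. The brightest probe read 0.99, 0.81, 0.95 and 0.89 on the control arrays and 1.06, 1.05, 0.96 and 1.06 on the HX630 arrays, where the groups overlapped. A second probe read 0.01, -0.07, -0.19 and -0.20 on the control arrays and -0.64, -0.69, -0.69 and -0.82 on the HX630 arrays. There all HX630 arrays were lower, by -0.60 (adjusted p = 0.000104), and the remaining probe differed by -0.24 (adjusted p = 0.122).

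Phosphodiesterases hydrolyze cyclic nucleotides, and 12 of their genes were on the list. Of the 10 tested, 2 were called higher and 2 lower. Pde2a is a phosphodiesterase for cAMP and cGMP that cGMP stimulates. Its signal was -0.34, -0.55, -0.51 and -0.50 on the control arrays and 0.26, 0.26, 0.14 and 0.18 on the HX630 arrays. It rose by 0.68 ± 0.055 (SE, n = 4 and 4; adjusted p = 2.21e-05) with no overlap. Pde4b belongs to the family that is specific for cAMP. Its signal was -0.56, -0.65, -0.64 and -0.65 on the control arrays and 0.34, 0.37, 0.36 and 0.23 on the HX630 arrays. The rise was 0.95 ± 0.042 (SE, n = 4 and 4; adjusted p = 1.03e-06), and a second probe was also called higher, at 0.73.

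Pde4d is of the same family as Pde4b and was called in the other direction. Its signal was -2.17, -2.25, -2.21 and -2.11 on the control arrays and -2.86, -2.88, -2.92 and -2.90 on the HX630 arrays. The HX630 arrays were all lower, with a difference of -0.70 ± 0.04 (SE, n = 4 and 4; adjusted p = 3.65e-06). This call was lost with spike-in scaling (-0.48) and with normexp background correction (-0.57). Pde4a, at -0.33 (adjusted p = 0.000137), was under the fold threshold, and Pde4c, at -0.24 (adjusted p = 0.633), varied too much between arrays to pass.

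Pde10a hydrolyzes both cAMP and cGMP and is best known from the striatum. Its signal was 0.67, 0.48, 0.59 and 0.69 on the control arrays and -0.64, -0.70, -0.68 and -0.65 on the HX630 arrays. HX630 left 41.4% of the control signal, a difference of -1.27 ± 0.052 (SE, n = 4 and 4; adjusted p = 7.37e-07), and a second probe was called at -1.32. Pde3a and Pde3b encode the phosphodiesterases that cGMP inhibits. They lay on opposite sides of 0, Pde3a at -0.48 (adjusted p = 0.00328) and Pde3b at 0.54 (adjusted p = 6.68e-05), both under the fold threshold. Pde7a, specific for cAMP, was at 0.36 (adjusted p = 7.63e-05), and Pde8a was at -0.05 (adjusted p = 0.742). Pde7b and Pde8b were not well above background on any array.

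**Figure D2:**
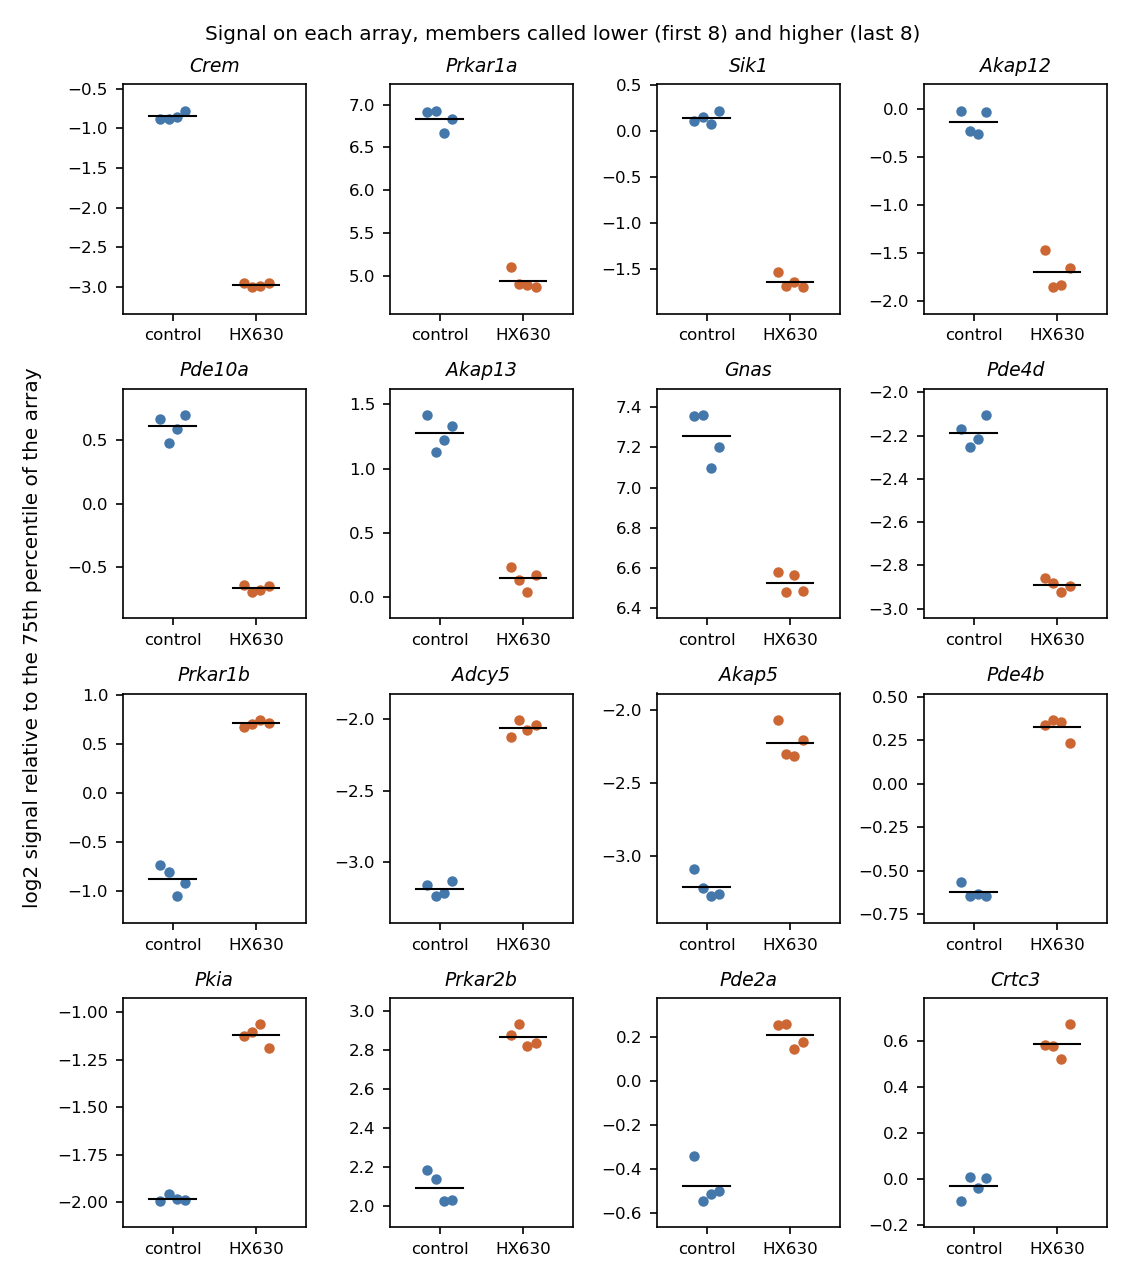
Log2 signal relative to the 75th percentile of the array (vertical axes, each panel with its own range) for the 16 called members, 1 point per array and a line at the mean of the 4 arrays of a group. In each panel the 4 control and the 4 HX630 arrays do not overlap, which was so for 61.5% of all genes tested.

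Of the CREB family, Crem was called and Creb1 and Atf1 were not. Crem encodes activators and repressors of CRE sites, among them ICER, a short repressor made from an internal promoter that cAMP itself induces. Its signal was -0.89, -0.88, -0.85 and -0.78 on the control arrays and -2.95, -3.01, -2.99 and -2.96 on the HX630 arrays. This was the lowest difference among the members, -2.13 ± 0.037 (SE, n = 4 and 4), with 22.9% of the control signal left and an adjusted p of 5.71e-08. A second probe read -2.65, -2.54, -2.62 and -2.81 on the control arrays and -3.80, -3.78, -3.86 and -3.80 on the HX630 arrays, and was called at -1.15 (adjusted p = 1.96e-06). Whether these probes read ICER, the longer forms or both was not determined. One more probe was well above background on 1 control array only. Creb1, the CREB gene itself, differed by 0.08 (adjusted p = 0.0835) on its brightest probe and by -0.18 on another. Atf1 differed by 0.06 (adjusted p = 0.146), while its second probe, at -0.34, passed the adjusted p (0.000143) and not the fold threshold.

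The CRTC coactivators enter the nucleus when they lose phosphate and bind CREB there. Crtc3 was called higher. Its signal was -0.10, 0.01, -0.04 and 0.00 on the control arrays and 0.58, 0.58, 0.52 and 0.67 on the HX630 arrays. The groups did not overlap, and the difference was 0.62 ± 0.044 (SE, n = 4 and 4; adjusted p = 1.1e-05). The second probe of Crtc3 gave another picture, with -1.54, -1.50, -1.57 and -1.66 on the control arrays and -1.57, -1.59, -1.60 and -1.52 on the HX630 arrays. These overlapped and differed by -0.01 (adjusted p = 0.929). The call of Crtc3 was lost with the mean of its probes (0.31) and with normexp background correction (0.58). Crtc1 was at 0.50 (adjusted p = 4.5e-05), under the fold threshold, and Crtc2 at -0.03 (adjusted p = 0.591).

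The Epac proteins are exchange factors for Rap that cAMP activates without PKA. Rapgef3 (Epac1) differed by -0.40 (adjusted p = 0.000196), under the fold threshold, and Rapgef4 (Epac2) by 0.09 (adjusted p = 0.248). The salt-inducible kinases phosphorylate the CRTC proteins and keep them out of the nucleus, and PKA inhibits these kinases. All 3 were below control and past the adjusted p, which 51.2% of all genes passed. Sik1, whose own transcript is induced by cAMP, had signals of 0.11, 0.16, 0.08 and 0.22 on the control arrays and -1.52, -1.68, -1.64 and -1.70 on the HX630 arrays. It fell to 29.2% of the control signal, a difference of -1.78 ± 0.052 (SE, n = 4 and 4; adjusted p = 2.05e-07). Sik2, at -0.53 (adjusted p = 2.62e-05), was under the fold threshold. The brightest probe of Sik3 differed by -0.23 (adjusted p = 0.00435) and a second by -0.28. Another, dimmer probe read -1.35, -1.42, -1.46 and -1.41 on the control arrays and -2.19, -2.23, -2.31 and -2.29 on the HX630 arrays, and was called at -0.85 (adjusted p = 1.55e-06).

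Of the 44 members tested, 20 had more than 1 tested probe. All tested probes were called for 6 of these genes, none for 9 and some for 5, namely Gnas, Prkar2b, Akap11, Crtc3 and Sik3. The probes had opposite signs for 6 genes, Akap10, Akap11, Creb1, Atf1, Crtc2 and Crtc3, and no gene had probes called in both directions. Probes of 1 gene can read different transcripts, and their part in these differences was not tested.

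**Figure D3:**
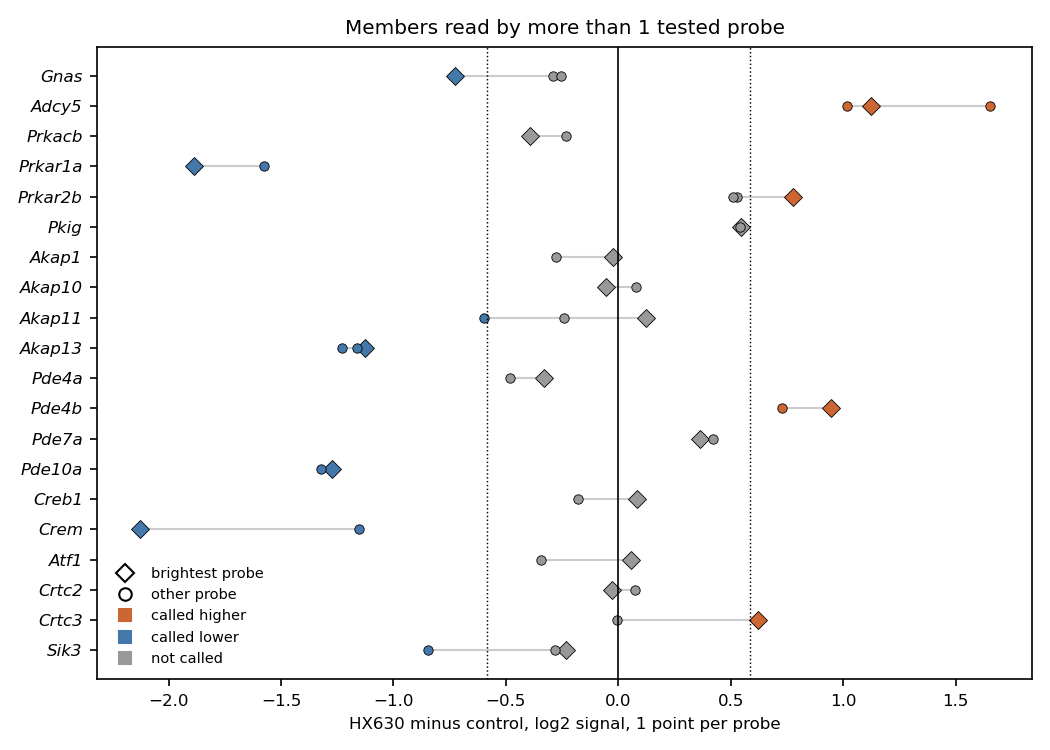
Difference between the HX630 and control means on the log2 scale (horizontal axis) for each tested probe of the 20 members with more than 1, with the brightest probe as a diamond, others as circles and dotted lines at the fold change threshold of 1.5. The probes of Prkar1a, Adcy5, Akap13, Pde4b, Pde10a and Crem lie together on 1 side, while those of Crtc3 lie at 0.62 and -0.01.

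The other genes of the pathway were taken from lists that were chosen with earlier results of these data known. Over all genes tested, 19.5% were called, 8.38% higher and 11.2% lower, and 51.2% passed the adjusted p. Of 5 other G protein alpha subunits tested none was called, though 2 passed the adjusted p. Of 11 receptors coupled to Gs or Gi, 2 were called higher and 1 lower, or 27.3% in all. Sstr3, a Gi-coupled somatostatin receptor, rose by 2.69 and Crhr1, the CRH receptor of corticotrophs, by 1.11. Vipr1, a Gs-coupled receptor for VIP and PACAP, had signals of 3.25, 3.16, 3.09 and 3.12 on the control arrays and 1.23, 0.74, 0.79 and 0.83 on the HX630 arrays, a difference of -2.26 ± 0.11 (SE, n = 4 and 4; adjusted p = 1.33e-06). Of 20 other cAMP effectors and enzymes tested, 4 were called higher and 3 lower, or 35% in all. Among those called higher were the phosphodiesterase Pde1c (2.43), Akap7 (0.70) and the phosphatase inhibitor Ppp1r1b (0.61). The phosphodiesterase Pde11a (-1.88), Akap3 (-1.79) and Crebl2 (-0.82), a relative of the CREB proteins, were called lower.

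Of 22 tested genes known to be driven by CREB, 14 were called lower (63.6%), where 11.2% of all genes were, and 1 was called higher, where 8.38% of all genes were. The list was chosen with earlier results of these data known, so this share is no independent evidence. Among the 14 is Nr4a3, which was at background on all HX630 arrays. Many of these genes are also immediate early genes that other signals induce. The median difference of the list was -0.84 against -0.03 for all genes. Ppargc1a, a coactivator of mitochondrial genes, had signals of 0.87, 0.62, 0.86 and 0.81 on the control arrays and -3.48, -4.40, -4.31 and -4.40 on the HX630 arrays. It differed by -4.94 ± 0.21 (SE, n = 4 and 4; adjusted p = 7.74e-07) with no overlap of the groups.

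Nr4a1 (Nur77), an orphan nuclear receptor that acts on the Pomc promoter, had signals of 3.89, 3.79, 3.75 and 3.86 on the control arrays and 0.89, 0.31, 0.32 and 0.43 on the HX630 arrays. The difference was -3.33 ± 0.13 (SE, n = 4 and 4; adjusted p = 5.65e-07). Its relative Nr4a3 was well above background on all 4 control arrays and on no HX630 array. It was at least 2.56-fold lower with HX630, a bound set by the lowest signal well above background on each array. Nr4a3 passed the filter only through the control arrays, and its call rests on HX630 values at background, so its p is not given. When all 8 arrays had to be above background, 13 targets were called lower. Vgf, a precursor of secreted neuropeptides, had signals of 4.78, 5.12, 5.19 and 5.26 on the control arrays and 2.21, 1.86, 2.04 and 2.15 on the HX630 arrays, which did not overlap (-3.03 ± 0.12, SE, n = 4 and 4; adjusted p = 6.27e-07). Pomc, also on this list, read 8.13, 8.19, 7.78 and 8.01 on the control arrays and 7.54, 7.55, 7.63 and 7.56 on the HX630 arrays. All HX630 arrays were below the controls, and the difference of -0.45 (adjusted p = 0.00241) was under the fold threshold.

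RefSeq's table held promoter windows for 21 of the 26 CREB target genes. The letters TGACG were in 20 of their 28 windows (71.4%), against 20.8% of all windows, and genes were listed for being known CREB targets. A whole CRE was in the window of 6 genes, Dusp1, Btg2, Sst, Scg2, Dio2 and Areg. Areg was not tested. The 60 bases around the CRE are shown for the other 5 because the same letters stand before genes that were called lower, called higher or not called. Capitals mark the CRE, and each is given 5′ to 3′ on the strand of its gene. On GRCm38.p6 they lie at chr17:26508582-26508641 (Dusp1), chr16:23890859-23890918 (Sst), chr1:79440061-79440120 (Scg2), chr12:90739100-90739159 (Dio2) and chr1:134079288-134079347 (Btg2), all on the minus strand.
Dusp1: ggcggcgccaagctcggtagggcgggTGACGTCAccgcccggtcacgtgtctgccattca
Sst: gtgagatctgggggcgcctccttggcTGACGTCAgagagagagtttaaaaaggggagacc
Scg2: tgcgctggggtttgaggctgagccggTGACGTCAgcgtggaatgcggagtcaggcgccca
Dio2: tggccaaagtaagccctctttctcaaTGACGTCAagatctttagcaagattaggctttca
Btg2: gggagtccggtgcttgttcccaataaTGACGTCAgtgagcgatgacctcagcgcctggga
Scg2, a granin of secretory granules, fell by 1.41 ± 0.052 (SE, n = 4 and 4; adjusted p = 4.75e-07), and Dusp1, a phosphatase of MAP kinases, by 0.85 ± 0.04 (SE, n = 4 and 4; adjusted p = 1.29e-06). Sst, which encodes somatostatin, was called lower at -0.60 (adjusted p = 7.71e-05), close to the fold threshold, and was called in 16 of 23 alternatives. The call was lost with quantile normalization (-0.50), median scaling (-0.52), spike-in scaling (-0.38), normexp (-0.51) and outlier spots kept (-0.42), and without control replicate 1 (-0.58) or HX630 replicate 4 (-0.57). Dio2, the deiodinase that activates thyroid hormone, read -0.67, -0.64, -0.66 and -0.70 on the control arrays and 0.21, 0.29, 0.28 and 0.21 on the HX630 arrays. It was the gene of this list called higher, at 0.92 ± 0.034 (SE, n = 4 and 4; adjusted p = 4.92e-07). Btg2, which restrains the cell cycle, was at 0.49 (adjusted p = 6.63e-06), without overlap of the groups and under the fold threshold.

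**Figure D4:**
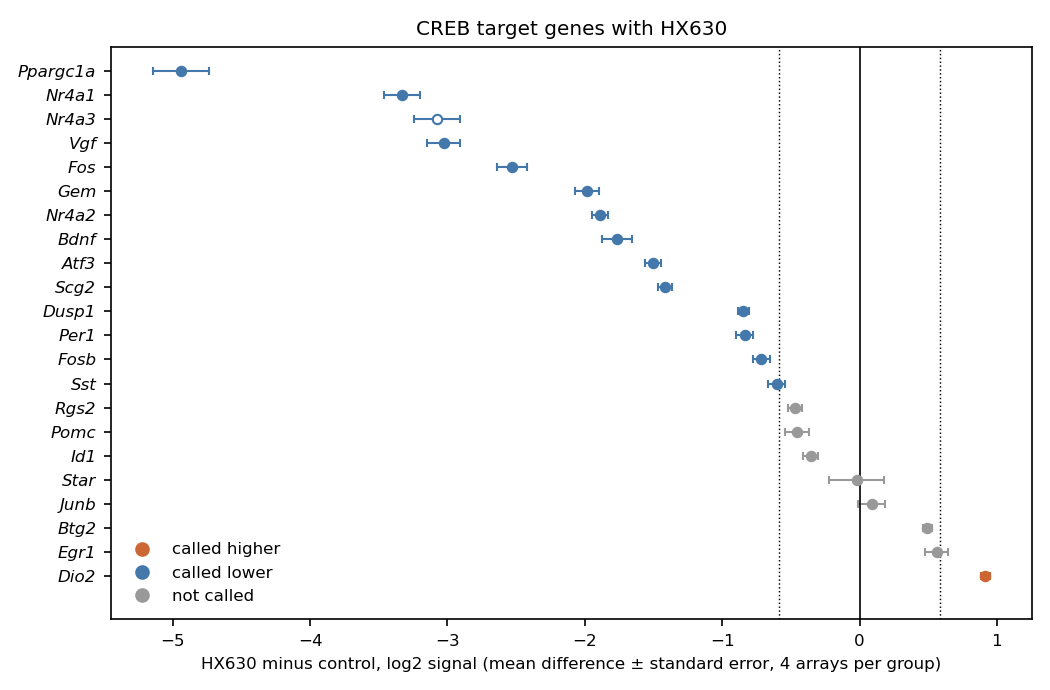
Difference between the HX630 and control means on the log2 scale (horizontal axis) for the 22 CREB target genes tested, with standard errors from limma, 4 arrays per group and dotted lines at the fold change threshold of 1.5. The 14 genes called lower run from Ppargc1a at -4.94 to Sst at -0.60, and the open circle marks Nr4a3, which was at background on all HX630 arrays, so that its fold change is known only as a bound.

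The cells had the markers of their label. Pomc, Tbx19, Pcsk1, Crhr1, Pitx1 and Neurod1 were well above background on all 8 arrays. With HX630 Pcsk1, the convertase that cleaves POMC, was called lower (-2.06) and Crhr1 and Neurod1 (0.72) higher. Of 8 markers of other pituitary lineages 4 were tested. Gh, Lhb and Nr5a1 were well above background on all 8 arrays, and Pou1f1 on 3 control and 4 HX630 arrays. Gh was called lower (from -5.08 ± 0.20 to -5.87 ± 0.16, SD, n = 4). Fshb was well above background on 2 control arrays and 1 HX630 array, and Gnrhr on 1 HX630 array. Prl and Tshb were not well above background on any array. Of 5 fibroblast markers 4 were tested, and Dcn was called higher (from -5.85 ± 0.50 to -4.82 ± 0.22, SD, n = 4). Col1a2, Col3a1 and Dcn were well above background on all 8 arrays. The part of these markers in the results above was not tested.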

How the data were processed

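Gene expression was measured by 1-color Agilent mouse arrays in RNA from 4 control and 4 HX630-treated samples of AtT20 cells. The authors deposited, for each array, the spot intensities given by Agilent Feature Extraction 10.7.3.1, after background subtraction and correction of trends across the array, with no scaling between arrays. A table of log2 values that the authors deposited too was made in GeneSpring. It held the log2 processed intensity less the 75th percentile of each array and served as an alternative.

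The analysis was done in R 4.3.3 with limma 3.58.1. Of 44397 spots, 1377 control spots were left out, as were spots marked as outliers. Spots of the same probe were averaged (39429 probes), and the 75th percentile of each array was subtracted from its log2 intensities. Probes that stood well above background on 4 or more of the 8 arrays were tested by lmFit and eBayes over all 8 arrays, with Benjamini-Hochberg adjustment over all 28552 probes tested. An exact permutation test of a single gene over the 70 regroupings of the arrays cannot give a p below 0.0286, which all 16 called members reached. Groups without overlap give this value, which was so for 61.5% of all genes tested. The 16 had already passed the adjusted p and the fold threshold, so it is no further evidence for their calls.

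Gene symbols came from a RefSeq table (GRCm38.p6), in which the accessions of the array files matched 26055 probes (66.1%) to 19751 symbols. All 50 members were accounted for, called members on every array, and of other lists at most the 4 called genes with the largest differences in each direction are named, besides CREB targets with a whole CRE. Of these genes, 1 is not reported here. The members and lists were chosen with earlier results of these data known, so that their direction is no independent evidence. Alternatives were other scalings (quantile, median, 75th percentile over detected probes, 258 spike-in spots), normexp with an offset of 50, the deposited table, other filters and thresholds, outlier spots kept, the mean of the probes of a gene, other variance models, the methods' t-test, a replicate block and the omission of each array in turn. The code was tested on simulated data. The number of arrays limits the precision.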

Additional observations from a re-analysis of the deposited data

Results flagged for a closer look

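Among the 88 groups of 4 arrays of the members tested, 5 held an array whose gap to its nearest neighbor took up more of the range of the group than Dixon's critical value for 4 arrays. Chance flags about 1 in 20 such groups, or 4.4 of 88. The gap of control replicate 3 for Prkacb was 0.865 of the range, with a signal of 4.73 against a mean of 4.66 on the other 3 arrays. Control replicate 1 stood apart for Sik3, with a gap of 0.894 and a signal of 2.97 against 2.82, and for Pde4b, with a gap of 0.845 and a signal of -0.56 against -0.64. HX630 replicate 3 stood apart for Akap10, with a gap of 0.911 and a signal of -0.65 against -0.53, and for Akap11, with a gap of 0.901 and a signal of 0.96 against 1.06. Of these genes Pde4b was the only one called, and its call was kept without each array in turn.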

How the results depend on the processing

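All 16 called members kept their call and direction under 19 of 23 alternatives, among them the deposited log2 values, both filters on dim probes, the methods' t-test and each array left out in turn. No called member changed sign. The calls lost were Gnas with quantile normalization, spike-in scaling and the mean of its probes, Pde4d with spike-in scaling and normexp, and Crtc3 with normexp and the mean of its probes. Calls were gained for Pkig and Pde3b with quantile normalization, these and Crtc1 with median scaling, these 3 and Pde7a with spike-in scaling, and Pde3b and Crtc1 with normexp. Spike-in scaling moved the median of all genes from -0.03 to 0.19. The members stayed 0.0089 above it by construction, since this scaling subtracts 1 value from each array. They were 0.026 above it with quantile normalization and 0.076 above it with normexp. The share of all called probes that were higher was 40.1% and became 51.6% with the median of each array and 68.9% with spike-in scaling. With normexp it went the other way, to 31.7%. Without a fold change threshold, 13 members were called higher and 14 lower, and 3 CREB targets higher and 17 lower. The CREB targets called higher numbered 2 with quantile normalization, 2 with median scaling, 3 with spike-in scaling and 1 to 2 with an array left out, the 2 being reached without control replicate 2 and without HX630 replicate 3. Those called lower numbered 12 with spike-in scaling, where Sst and Fosb (-0.49) were lost, against 14. The median difference of the members was 0.056 with quantile normalization, 0.062 with median scaling, 0.20 with spike-in scaling and between -0.0331 and 0.032 with an array left out.

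Members that changed sign had not been called. With quantile normalization these were Adcy3 (0.11), Pde8a (0.0695) and Crtc2 (0.0251). With median scaling they were Adcy3 (0.0482), Prkaca (0.0175), Akap1 (0.0646), Akap10 (0.0336), Pde8a (0.0413) and Crtc2 (0.0595). With spike-in scaling they were Adcy3 (0.18), Adcy9 (0.0596), Prkaca (0.15), Akap1 (0.20), Akap8 (0.13), Akap10 (0.17), Pde8a (0.18) and Crtc2 (0.19). With normexp they were Akap1 (0.0849), Akap6 (-0.27), Creb1 (-0.0155) and Rapgef4 (-0.0288). With the mean of the probes they were Akap10 (0.0135), Akap11 (-0.24), Creb1 (-0.0491), Atf1 (-0.14) and Crtc2 (0.024). With an array left out the range crossed 0 for Adcy3 (-0.18 to 0.0901), Crtc2 (-0.0525 to 0.0024), Pde8a (-0.118 to 0.0201), Akap8 (-0.23 to 0.0332), Pde4c (-0.51 to 0.0423), Akap1 (-0.0536 to 0.00247) and Akap6 (-0.064 to 0.45). Median and spike-in scaling subtract 1 value from each array and so shift the differences of all genes alike. The sign changes listed for them come with that common shift. The cause of the others was not tested.

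With a replicate block, 8 members were called higher and 8 lower, as without it. Deviations of samples with the same number correlated at 0.52, -0.0093, 0.24 and 0.38, and 2 of 4 matched their own number best. Since not every pair deviated together, the numbers were not taken to pair the samples. Slide and scan could not be fitted as a block, since no slide held both groups.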
